A study of Mus musculus with 14 samples.

Results

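The 3 Cyp2b cytochrome P450 genes Cyp2b9, Cyp2b10 and Cyp2b13 and the nuclear receptor gene Nr1i3, which encodes CAR, were followed through the livers of 14 mice. They are 4 of the 37681 genes in the deposited table, taken by symbol, and all 4 were among the 17223 genes that passed the filter on low counts. They were picked with the difference between the diets already known. Their diet differences are therefore given as a description without a test. Polyadenylated RNA from liver was sequenced, with 1 library per mouse, from 7 mice on a diet high in fat and sucrose (HFHS) and 7 on a diet low in both (LFLS). The sources name no strain, sex, age, length of feeding, genotype or other treatment. Libraries are numbered 1 to 7 within a diet as a name only. The sample titles begin with a number whose meaning the labels do not give: it is 1 for libraries 1 to 4 of each diet and 2 for libraries 5 to 7.

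CAR is a nuclear receptor of hepatocytes that is held in the cytoplasm in a complex with heat shock proteins. Drugs such as phenobarbital, bile acids and other signals send it into the nucleus, where it binds DNA with its partner RXR and switches on genes of drug and steroid metabolism. Cyp2b10 is the classical CAR target of mouse liver and is low in untreated animals. Cyp2b9 and Cyp2b13 encode closely related P450 enzymes that hydroxylate steroids and fatty acids and are normally higher in female than in male liver. In bulk tissue, fewer cells of a type and less RNA per cell cannot be told apart.

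The 3 Cyp2b genes lie in the Cyp2 cluster on chromosome 7 in the order Cyp2b10, Cyp2b13, Cyp2b9, with pseudogenes of the family between them. The 250 bases before each gene start are shown because Cyp2b9 and Cyp2b13, whose diet differences were far apart, were nearly identical there. Capitals mark the 2 positions at which these windows differ. In the RefSeq sequence of GRCm38.p6, on the plus strand, they span chr7:26173159-26173408 for Cyp2b9, chr7:26061245-26061494 for Cyp2b13 and chr7:25897408-25897657 for Cyp2b10.
Cyp2b9: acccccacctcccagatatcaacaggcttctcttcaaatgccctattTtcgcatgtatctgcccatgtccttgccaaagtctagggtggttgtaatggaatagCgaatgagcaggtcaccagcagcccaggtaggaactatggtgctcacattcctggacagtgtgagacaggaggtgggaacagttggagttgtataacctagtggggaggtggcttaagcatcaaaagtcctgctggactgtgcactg
Cyp2b13: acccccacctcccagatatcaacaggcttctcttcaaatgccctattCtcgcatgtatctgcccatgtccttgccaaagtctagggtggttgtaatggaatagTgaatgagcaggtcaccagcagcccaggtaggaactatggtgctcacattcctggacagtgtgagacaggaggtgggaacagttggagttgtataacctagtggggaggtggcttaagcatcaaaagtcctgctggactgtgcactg
Cyp2b10: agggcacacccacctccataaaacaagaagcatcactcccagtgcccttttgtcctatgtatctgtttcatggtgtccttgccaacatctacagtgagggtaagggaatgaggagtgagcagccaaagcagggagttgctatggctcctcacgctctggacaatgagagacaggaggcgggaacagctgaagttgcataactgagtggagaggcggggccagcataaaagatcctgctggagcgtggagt
The Cyp2b9 and Cyp2b13 windows matched at 248 of 250 bases (99.2%). With positions counted from 1 at the first base of the window and Cyp2b13 as the reference, the differences were C48T, 203 bases before the gene start, and T104C, 147 bases before it. Cyp2b10 matched each of the other two at 186 of 262 aligned positions (71.0%).

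The hexamer AGGTCA, the core element of many nuclear receptor sites, was searched on both strands. It occurred at 138 bases before the start in both Cyp2b9 and Cyp2b13, outside the differing bases. Neither the Cyp2b10 window nor that of Nr1i3 (chr1:171213720-171213969, plus strand) held it. Of all 32851 RefSeq promoter windows of this length, 14.0% did. The STAT-type element TTCNNNGAA, in 7.02% of all windows, and the TATA element TATAAA, in 12.4%, were in none of these 4 windows, searched the same way. These matches describe letters in a short window and say nothing of binding.

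The coding transcripts of Cyp2b9 and Cyp2b13 were less alike than their promoter windows. Those of Cyp2b10 and either of the others were more alike than the windows. Cyp2b9 and Cyp2b13 were identical at 89.3% of aligned positions, Cyp2b9 and Cyp2b10 at 84.8%, and Cyp2b10 and Cyp2b13 at 84.4%. Reads were 50 bases long, so each transcript was cut into all its 50-base words, on GENCODE M21 models. Of the 1827 words of Cyp2b9, 1623 (88.8%) were in no other gene and 198 (10.8%) were also in Cyp2b13. Cyp2b10 had 1686 of 1867 words (90.3%) to itself. Cyp2b13 was the least distinct of the family, with 1328 of 1826 words (72.7%) of its own and 252 (13.8%) shared with the pseudogene Gm45225. How the authors' counting treated reads that fit several genes is not stated in the sources, so counts of Cyp2b13 in particular are uncertain at that level.

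Nr1i3 shared sequence in another way. It lies on the plus strand over Tomm40l, a gene of the minus strand for a mitochondrial import channel protein. The models share 3304 of the 4414 exonic bases of Nr1i3 (74.9%), and only 1229 of its 2931 words (41.9%) were free of Tomm40l. The labels do not say that the library kit kept strand, so reads from the shared bases cannot be assigned to either gene.

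**Figure D1:**
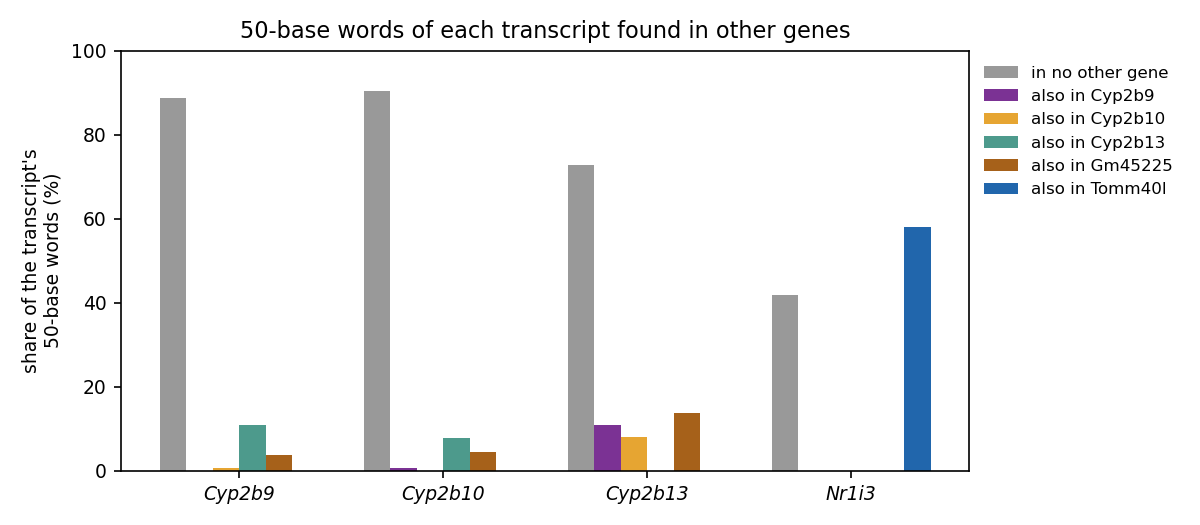
Share of each transcript's 50-base words (vertical axis, percent) that occur in no other gene or also in a named gene, for the 4 genes (horizontal axis). Cyp2b9 and Cyp2b10 were mostly distinct (88.8% and 90.3%), while 58.1% of the Nr1i3 words were also in Tomm40l.

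The libraries held 18219257 to 52826695 counts. Levels are given as CPM, counts scaled to a common library total after TMM adjustment for composition. Sums of markers use the library totals alone. Log2 CPM correlated at 0.933 or more between libraries of the same diet, and HFHS 1 stood apart on the second principal component (17.6% of the variance) at 56.8, with the others between -33.3 and 26.4. On the first (30.3%) LFLS 1 lay at -73.1, with the next library at -41.7. Its LFLS values split by title number, at -73.1 to -25.6 for number 1 and 30.8 to 35.9 for number 2. The HFHS values were -8.64 to 8.16 for number 1 and 11.5 to 30.0 for number 2. Summed hepatocyte markers, such as Alb and Apoa1, ranged from 110221 to 141262 CPM on LFLS and from 91331 to 130830 on HFHS, with HFHS 1 lowest. In that library the summed endothelial, stellate and bile duct markers (1184 CPM) and leukocyte and Kupffer markers (569 CPM) were the highest of all 14. Summed adipocyte markers were 760 to 1976 CPM on LFLS and 1759 to 2460 on HFHS, with Car3, which hepatocytes also express, the only one called by edgeR. Exocrine pancreas markers were 17.5 to 1859 and 15.5 to 492 CPM. The part of these marker levels in the results was not tested. Xist had 4 to 13 counts and the Y-linked Ddx3y 995 to 5983 in every library. Of all genes tested, 484 (2.81%) differed between the diets at an adjusted p under 0.05 (edgeR quasi-likelihood test, Benjamini-Hochberg), 236 higher and 248 lower on HFHS.

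Cyp2b9 (ENSMUSG00000040660) showed the widest separation of the 4 genes between the diets. On LFLS its lowest, median and highest levels were 0.0327, 0.213 and 0.320 CPM, from 1 to 13 counts per library. On HFHS they were 1.32, 21.4 and 272 CPM, from 26 to 13371 counts. Every HFHS library was above every LFLS library. The mean was 0.177 ± 0.105 CPM on LFLS and 68.6 ± 97.5 CPM on HFHS (SD, n = 7 each), a log2 fold change of 8.56 ± 1.24 (SE). The size of this ratio rests on few LFLS counts, and 1 is the lowest count any gene has in the table.

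Within HFHS, Cyp2b9 was the most scattered of the genes, with 205-fold between the highest and lowest mouse and a coefficient of variation of 142%. HFHS 1 had 272 CPM, HFHS 6 had 97.8 and HFHS 5 had 77.9. HFHS 2 had 21.4, HFHS 3 had 6.61, HFHS 4 had 3.60 and HFHS 7 had 1.32 CPM. The 3 highest libraries came from both title numbers, and so did the lowest 3. Without HFHS 1 the log2 fold change was 7.57. It was 8.96 among title number 1 libraries alone and 8.04 among title number 2 libraries alone. The part of the cell type markers of HFHS 1 in its high Cyp2b9 level was not tested.

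Cyp2b10 (ENSMUSG00000030483), the usual readout of CAR activity, was low on both diets and did not overlap between them. LFLS libraries had 0.143, 0.367 and 1.20 CPM as lowest, median and highest values, from 4 to 37 counts per library. HFHS libraries had 1.78, 2.87 and 12.6 CPM, from 49 to 452 counts. The means were 0.607 ± 0.472 and 4.81 ± 4.04 CPM (SD, n = 7 each), a log2 fold change of 3.02 ± 0.57 (SE). The size of this ratio also rests on few LFLS counts. HFHS 6 (12.6 CPM) and HFHS 1 (8.11 CPM) were far above the other HFHS mice, which had 1.78 to 3.77 CPM. The log2 fold change was 2.55 without HFHS 6. On LFLS the libraries split by title number, with 0.143 to 0.367 CPM for number 1 and 0.933 to 1.20 CPM for number 2. The log2 fold change was accordingly 3.97 within title number 1 and 2.58 within title number 2.

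Cyp2b13 (ENSMUSG00000040583) was the main Cyp2b transcript on LFLS and differed less between the diets. Its lowest, median and highest levels were 9.72, 15.2 and 22.4 CPM on LFLS and 18.7, 25.7 and 62.8 CPM on HFHS. The groups overlapped when pooled. They did not overlap within a title number, where number 1 had 9.72 to 15.2 against 18.7 to 62.8 CPM and number 2 had 20.7 to 22.4 against 25.7 to 38.7 CPM. The share of all genes separated among so few libraries (4 or 3 per diet) was not counted, and nothing is read from this. The means were 16.2 ± 5.18 on LFLS and 31.5 ± 15.6 CPM on HFHS (SD, n = 7 each), a log2 fold change of 0.96 ± 0.27 (SE). It was 0.69 without HFHS 1, 1.35 within title number 1 and 0.60 within title number 2.

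Nr1i3 (ENSMUSG00000005677), the receptor gene, differed least between the diets. Its lowest, median and highest levels were 109, 262 and 327 CPM on LFLS and 208, 368 and 461 CPM on HFHS, and the groups overlapped. The means were 239 ± 74.1 and 342 ± 82.6 CPM (SD, n = 7 each), a log2 fold change of 0.52 ± 0.22 (SE). Within title number 2 the LFLS libraries (262 to 327 CPM) were below the HFHS libraries (370 to 461 CPM), while title number 1 libraries overlapped (109 to 275 against 208 to 368 CPM). Separation within a title number was not counted over all genes, and nothing is read from it. The log2 fold change within the title numbers was 0.59 and 0.48. It was 0.95 with limma voom and sample quality weights.

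Tomm40l (ENSMUSG00000005674), which shares most Nr1i3 exonic bases, had nearly the same pattern. Its mean was 133 ± 39.8 CPM on LFLS and 193 ± 44.0 CPM on HFHS (SD, n = 7 each), a log2 fold change of 0.53 ± 0.20 (SE). Its counts were 51.8% to 60.0% of those of Nr1i3 in every library. Over the 7 libraries of a diet the log2 CPM of the pair correlated at r = 0.99 on LFLS (exact two-sided permutation p = 0.000397) and 1.00 on HFHS (exact permutation p = 0.000198, the smallest these permutations can give). Adjusted over the 2 diets, both were 0.000397. Because the pair shares most Nr1i3 exonic bases, a high correlation can come from shared reads alone. These p-values therefore do not test a relation between the genes, and the counts of the pair cannot be told apart here.

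Without LFLS 1 the log2 fold changes were 8.45 for Cyp2b9, 2.93 for Cyp2b10, 0.86 for Cyp2b13 and 0.56 for Nr1i3. Of the 4 genes, 2 were called between the diets and 2 had no overlap. With the title number as a block Cyp2b13 was called as well, making 3 of 4, where 8.94% of all genes were. Over all genes tested, 2.81% were called and 1.65% had no overlap (0.854% with every HFHS library above every LFLS library), and nothing is read from this comparison because the genes were chosen on it. The authors' deposited table, whose headers name its groups only A and B, gave log2 ratios of B to A of 8.66 for Cyp2b9, 3.06 for Cyp2b10, 0.92 for Cyp2b13 and 0.36 for Nr1i3.

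**Figure D2:**
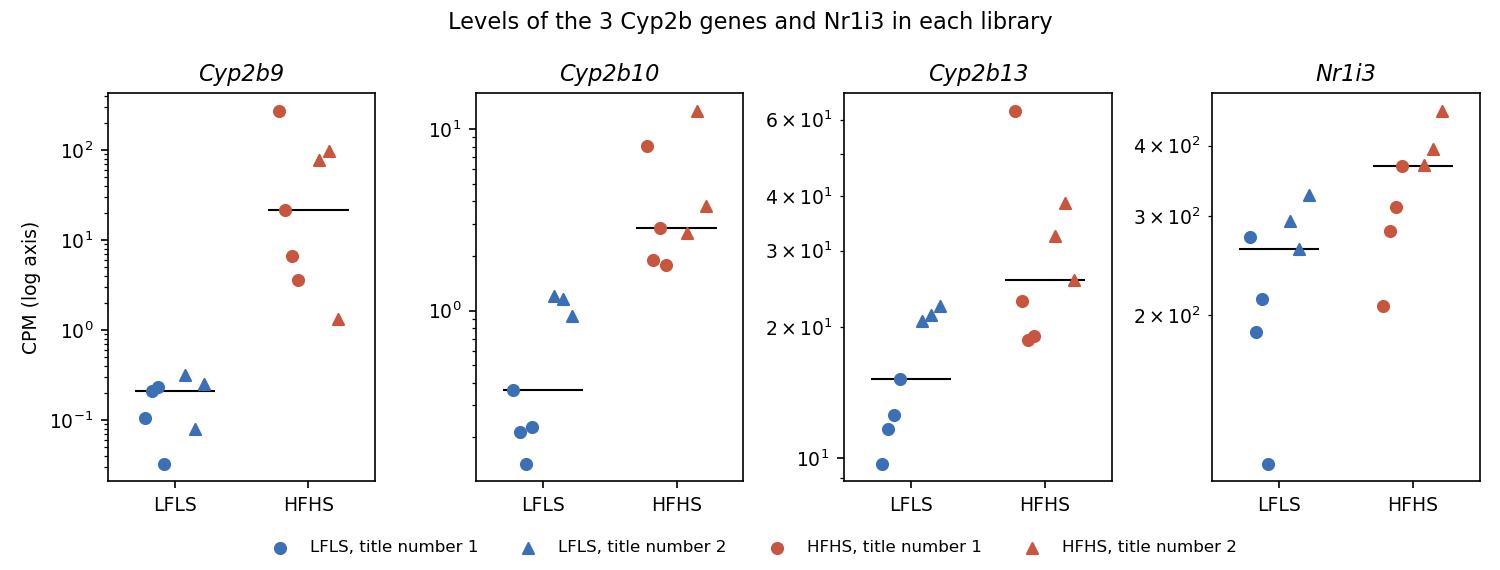
Levels of the 4 genes in each library, in CPM on log axes with a separate range for each gene, by diet. Circles are title number 1 and triangles title number 2 libraries, and lines are medians: Cyp2b9 and Cyp2b10 did not overlap between the diets, while Cyp2b13 and Nr1i3 did.

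Because the family's transcripts are of nearly the same length (1876, 1916 and 1875 bases for Cyp2b9, Cyp2b10 and Cyp2b13), their levels were set side by side as CPM per kilobase. On LFLS the order was Cyp2b13 (8.66 ± 2.76), Cyp2b10 (0.317 ± 0.247) and Cyp2b9 (0.0941 ± 0.0559 CPM per kilobase, SD, n = 7). On HFHS, Cyp2b9 had the highest mean (36.6 ± 52.0), then Cyp2b13 (16.8 ± 8.30) and Cyp2b10 (2.51 ± 2.11 CPM per kilobase). The medians had the other order (11.4 for Cyp2b9 and 13.7 for Cyp2b13), and without HFHS 1 the means were 18.5 ± 22.5 and 14.0 ± 4.22. The spread of Cyp2b9 between mice was wide, and its HFHS level was not tested against that of Cyp2b13 in the same libraries.

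The mix of Cyp2b transcripts differed from mouse to mouse on HFHS. In all 7 LFLS libraries Cyp2b13 made up 93.2% to 98.3% of the counts of the 3 genes and Cyp2b9 0.211% to 1.79%. These Cyp2b9 shares rest on 1 to 13 counts per library. LFLS 4, at 0.211% (exact 95% binomial interval 0.00535 to 1.17), had 1 count, the table's lowest. On HFHS the Cyp2b9 share was 79.3% in HFHS 1 (exact 95% binomial interval 78.7 to 79.9), 68.9% in HFHS 5 (66.9 to 70.9) and 65.6% in HFHS 6 (64.3 to 66.9). It was 46.2% in HFHS 2, 23.5% in HFHS 3, 14.7% in HFHS 4 and 4.30% in HFHS 7 (2.83 to 6.24). These intervals cover counting error only. The ratio of Cyp2b9 to Cyp2b13 counts ran from 0.00215 to 0.0184 on LFLS and from 0.0516 to 4.33 on HFHS. Cyp2b10 stayed a minor share, 1.10% to 5.41% on LFLS and 2.37% to 12.3% on HFHS. The summed level of the 3 genes was 10.2 to 23.6 CPM on LFLS and 24.5 to 343 CPM on HFHS.

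**Figure D3:**
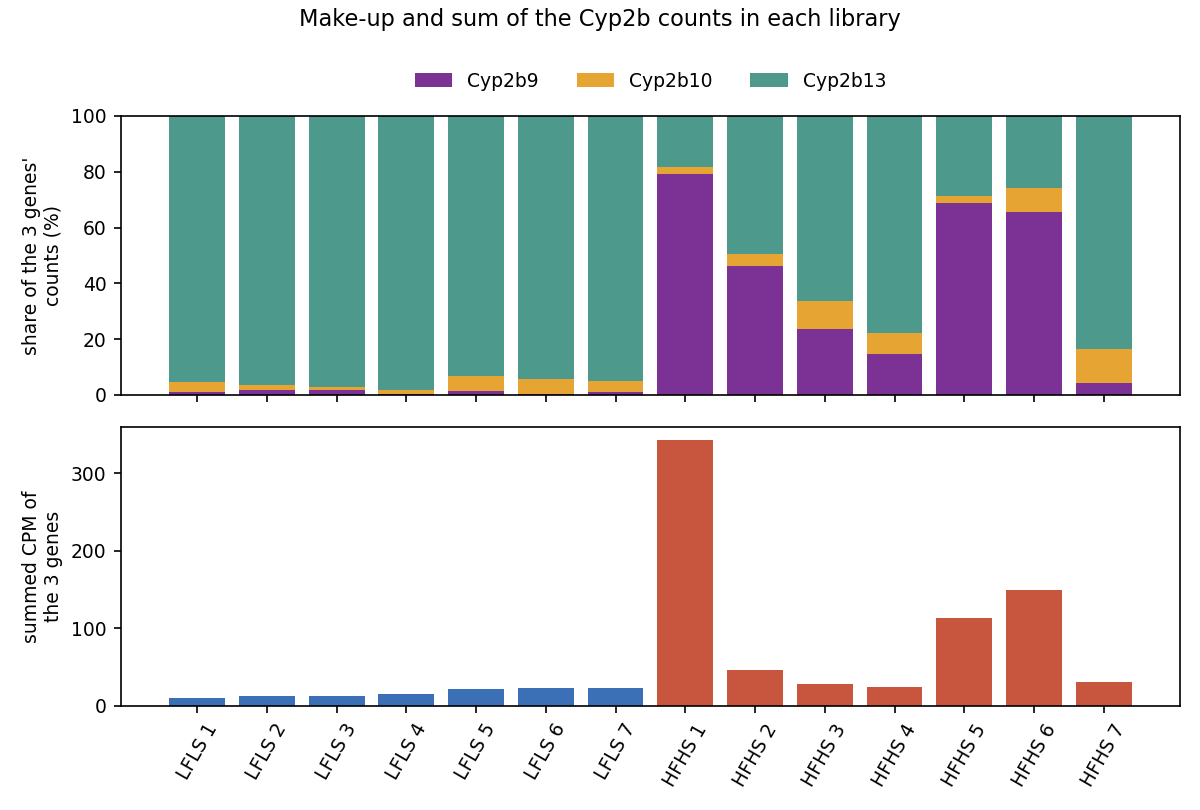
Share of each Cyp2b gene in the counts of the 3 genes (upper panel, percent) and their summed level (lower panel, CPM) in each of the 14 libraries (horizontal axis). Cyp2b13 made up at least 93.2% in every LFLS library, while Cyp2b9 exceeded 65% in HFHS 1, 5 and 6 and was 4.30% in HFHS 7.

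Cyp2b23 and Cyp2b19, the other protein-coding Cyp2b genes of the cluster, did not pass the filter on low counts and were looked at after their values were seen. Cyp2b23 stood at the table's lowest count, 1, in all LFLS libraries and in HFHS 2, 3, 4 and 7. It had 100 counts in HFHS 1, 31 in HFHS 6 and 18 in HFHS 5, which are the 3 libraries with the most Cyp2b9. Cyp2b19 had 59 counts in HFHS 1 and 1 to 3 in every other library.

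The spread among mice on the same diet was not used to choose the genes, so relations between them were tested within each diet. Log2 CPM of the 6 pairs was correlated over 7 libraries, with exact two-sided permutation tests and Benjamini-Hochberg adjustment over 12 tests. None of the 12 passed an adjusted p of 0.05. The highest on HFHS was between Cyp2b9 and Cyp2b13, with r = 0.82 (exact permutation p = 0.0210, adjusted 0.217) and Spearman's rho = 0.75 (exact permutation p = 0.0663, adjusted 0.329). Without HFHS 1 and HFHS 7, the libraries farthest from the median Cyp2b9 level, r was 0.96. These genes share 50-base words, as given above.

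Cyp2b10 and Cyp2b13 had r = 0.78 on HFHS (exact permutation p = 0.0397, adjusted 0.217, rho = 0.68, p = 0.110) and 0.81 on LFLS (exact permutation p = 0.0542, adjusted 0.217, rho = 0.61, p = 0.167). On HFHS this rested on HFHS 1 and HFHS 6, without which r was 0.37. On LFLS r was 0.65 without LFLS 5 and LFLS 6, and both genes were higher in the title number 2 libraries. Cyp2b10 had only 4 to 37 counts per LFLS library, which limits this value. Cyp2b9 and Nr1i3, an enzyme and the receptor, had r = -0.59 on HFHS (exact permutation p = 0.157, adjusted 0.315, rho = -0.43, p = 0.354) and 0.63 on LFLS (exact permutation p = 0.125, adjusted 0.300, rho = 0.68, p = 0.110). HFHS 1 had the most Cyp2b9 and the least Nr1i3 of its diet, and HFHS 7 the least Cyp2b9 and the most Nr1i3. Without these libraries r was 0.37, so the negative value rests on them. The LFLS value rests on LFLS 4 and LFLS 6, without which r was 0.10. Cyp2b9 had only 1 to 13 counts per LFLS library, too few to measure a relation. Nothing is read from its LFLS correlations with any of the other genes. The other 7 tests had r from -0.46 to 0.67 (exact permutation p 0.0798 to 0.806). The title number moves with several of these genes, and 4 or 3 libraries of a title number are too few for a correlation.

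**Figure D4:**
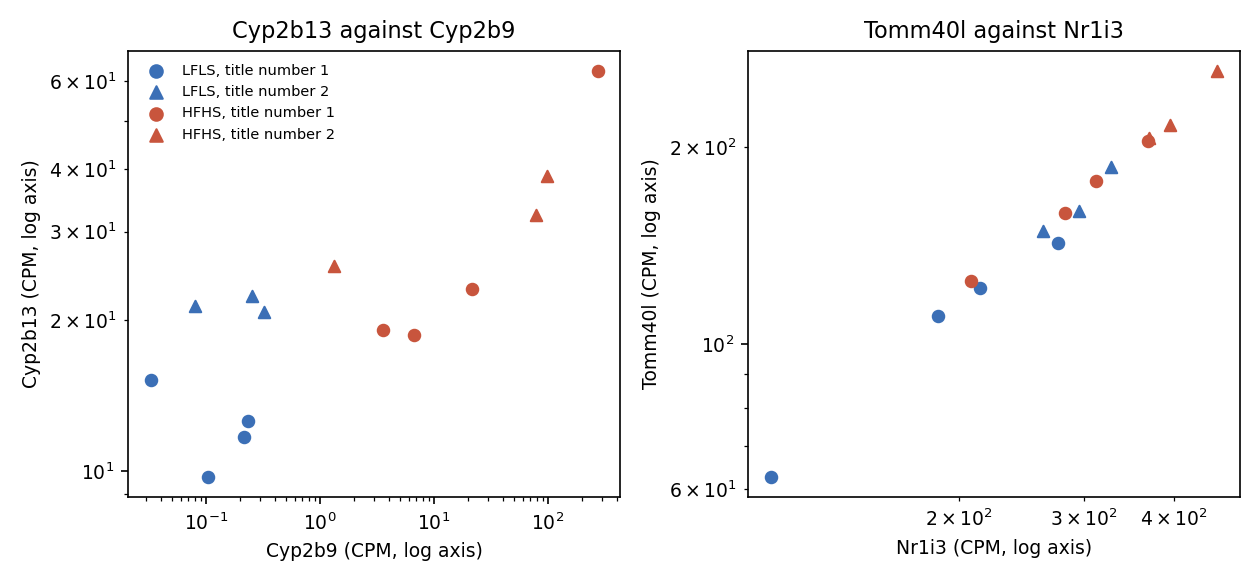
Level of Cyp2b13 against Cyp2b9 (left) and of Tomm40l against Nr1i3 (right) in each library, in CPM on log axes. Colours are diets and shapes title numbers; Tomm40l followed Nr1i3 closely (r = 0.99 on LFLS and 1.00 on HFHS), while Cyp2b13 and Cyp2b9 had r = 0.82 on HFHS.

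The title number offered a contrast that the choice of genes had not used. With diet in the model, Nr1i3 and Cyp2b10 were higher in title number 2 libraries. The log2 difference was 0.53 ± 0.17 for Nr1i3 (SE, edgeR quasi-likelihood adjusted p = 0.0315) and 1.32 ± 0.45 for Cyp2b10 (adjusted p = 0.0410). The Cyp2b10 value rests in part on 4 to 37 counts per LFLS library. Tomm40l, at 0.52 ± 0.16 (adjusted p = 0.0239), went with Nr1i3. Cyp2b13, at 0.43 ± 0.26 (adjusted p = 0.212), and Cyp2b9, at -0.22 ± 1.08 (adjusted p = 0.894), were not called. So 2 of the 4 genes were called, where 28.8% of all genes tested were.

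The Nr1i3 call was lost without LFLS 2, LFLS 5, LFLS 7, HFHS 1 or HFHS 7 (adjusted p 0.0507 to 0.0776, edgeR), and the Cyp2b10 call without any of 11 libraries, all but HFHS 1, 5 and 7 (adjusted p 0.0565 to 0.143). Without HFHS 1, Cyp2b13 was called at 0.74 (adjusted p = 0.00147) and Cyp2b9 turned to 2.13 (adjusted p = 0.0776).

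Whether the diet difference itself depended on the title number was tested as an interaction. The terms, title number 2 minus 1, were -0.91 ± 3.18 for Cyp2b9, -1.40 ± 0.91 for Cyp2b10, -0.74 ± 0.50 for Cyp2b13 and -0.10 ± 0.35 for Nr1i3 (log2, SE). Their adjusted p-values were 0.888, 0.373, 0.392 and 0.888 (edgeR quasi-likelihood test). None of the 4 was called by edgeR, by DESeq2 or by limma voom, and none had an unadjusted p under 0.05, against 0.883% of all genes called by edgeR, 10.3% by DESeq2 and 20.8% by limma voom. The errors are wide, above all for Cyp2b9, and a difference of several fold was not detectable for it.

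CAR acts on a wide programme beyond Cyp2b. The listed targets were not sorted by whether CAR raises or lowers them, so a rise is not a readout of CAR activity for each. Of the 68 listed targets, 66 could be tested. On HFHS, 5 rose, 1 fell and 60 did not pass the test, where 1.37% of all genes were called higher and 1.44% lower. Their median log2 fold change was 0.27, with 50 above 0, beside -0.01 over all genes. Leaving out HFHS 2 or HFHS 5 reduced the 6 calls to 3, leaving out LFLS 2, LFLS 4, LFLS 7 or HFHS 6 to 4, and leaving out LFLS 1 raised them to 10. Without HFHS 1 they were 5. DESeq2 called 9 higher and 2 lower, where it called 3.15% and 4.15% of all genes. Limma voom called 23 higher and 1 lower, where it called 9.96% and 9.05%.

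Among phase I enzymes, which oxidise drugs and steroids, 3 of 26 rose and 1 fell by edgeR. It called 1.37% of all genes higher and 1.44% lower. Cyp2c38, a P450 of the arachidonate-metabolising Cyp2c family, went from 23.4 ± 9.46 to 74.4 ± 19.4 CPM, a log2 fold change of 1.67 ± 0.24 (SE, edgeR adjusted p = 0.00334). Aldh1a1, a retinaldehyde dehydrogenase, went from 1056 ± 145 to 1764 ± 185 CPM, or 0.74 ± 0.11 (edgeR adjusted p = 0.00443). For both, every HFHS library was above every LFLS library. Their values within the title numbers were 1.58 and 1.81 for Cyp2c38 and 0.74 and 0.76 for Aldh1a1. Aldh1a7, a close relative of Aldh1a1, rose by 0.54 ± 0.12 (edgeR adjusted p = 0.0293). That call was lost without LFLS 2, 3, 4 or 7 or HFHS 2, 5 or 6 (adjusted p 0.0522 to 0.0751).

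The P450 that went the other way was Cyp1a2, which oxidises caffeine and aromatic amines. It fell from 284 ± 65.9 to 156 ± 34.8 CPM, a log2 fold change of -0.87 ± 0.17 (SE, edgeR adjusted p = 0.0145). Its value was -0.99 within title number 1 and -0.66 within title number 2, where it was no longer called (edgeR adjusted p = 0.0751). Cyp2c29, another much used CAR readout, was not called, at 0.40 ± 0.20 (edgeR adjusted p = 0.265), but was called by limma voom at 0.61 (adjusted p = 0.0263). Por, the reductase that feeds electrons to all microsomal P450s, had -0.22 ± 0.28 (edgeR adjusted p = 0.699), and 0.16 with limma voom.

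Conjugating phase II enzymes had 1 of 19 called by edgeR, higher on HFHS, where 1.37% of all genes were called higher. DESeq2 called 2 higher and 0 lower, where it called 3.15% and 4.15% of all genes. Limma voom called 6 higher and 0 lower, where it called 9.96% and 9.05%. Gsta1, a glutathione transferase with near-identical copies, rose from 4.26 ± 1.83 to 14.3 ± 10.2 CPM, or 1.75 ± 0.44 (log2, SE, edgeR adjusted p = 0.0445). The call was lost without any of 9 libraries, namely LFLS 2, 3, 4 and 7 and HFHS 1, 2, 5, 6 and 7 (adjusted p 0.0632 to 0.0975). Gsta1 was also not called by limma voom with sample quality weights, with no filter on low counts or in either title number alone. None of the 6 transporters was called by edgeR, DESeq2 or limma voom, and none had an unadjusted p under 0.05. The 2 with the smallest p were the efflux pumps Abcb1a, at 0.41 ± 0.20 (edgeR adjusted p = 0.277), and Abcc2, at 0.16 ± 0.11 (edgeR adjusted p = 0.447).

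Among 15 targets in growth and energy metabolism, Dio1, the deiodinase that activates thyroid hormone, rose from 110 ± 27.3 to 175 ± 18.9 CPM. Its log2 fold change was 0.67 ± 0.14 (SE, edgeR adjusted p = 0.0228), and the call was lost without HFHS 2 or HFHS 5 (adjusted p 0.0585 and 0.0607). The call was also lost with no filter on low counts and in title number 2 alone (adjusted p 0.0563 and 0.270). The other 14 were not called by edgeR, which called 1.37% of all genes higher and 1.44% lower. The list's median was 0.59. DESeq2 called 2 of the 15 higher and 1 lower, where it called 3.15% and 4.15% of all genes. Limma voom called 6 higher and 0 lower, where it called 9.96% and 9.05%.

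Partners, chaperones and signalling proteins of CAR had 2 of 30 called, both lower, by TMM scaling. By library totals alone 1 was called higher and 0 lower, by DESeq2 1 higher and 5 lower, and by limma voom 2 higher and 11 lower. Over all genes tested, edgeR with TMM called 1.37% higher and 1.44% lower, DESeq2 3.15% and 4.15%, and limma voom 9.96% and 9.05%. Library totals alone called 379 of 17223 genes higher and 152 lower. The fallen pair were the related acetyltransferases and coactivators Crebbp, at -0.45 ± 0.10 (log2, SE, edgeR adjusted p = 0.0331), and Ep300, at -0.28 ± 0.07 (edgeR adjusted p = 0.0475). For Crebbp, which went from 30.6 ± 5.32 to 22.4 ± 0.962 CPM, the difference was -0.64 within title number 1 and -0.12 within title number 2. Its interaction term was 0.53 ± 0.11 (edgeR adjusted p = 0.0418). The Crebbp call was lost without any of 10 libraries, all but LFLS 1, 5, 6 and 7 (adjusted p 0.0510 to 0.0754), and the Ep300 call without any of 12, all but LFLS 1 and 6 (adjusted p 0.0564 to 0.115).

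Rxra, the main DNA-binding partner of CAR in liver, was not called, at -0.42 ± 0.16 (log2, SE, edgeR adjusted p = 0.174). With the title number as a block its adjusted p was 0.0434 by edgeR, and its values within the title numbers were -0.58 and -0.07. Rxra was lower by 0.49 in title number 2 libraries (edgeR adjusted p = 0.00692), the opposite direction to Nr1i3.

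Transcription factors known to act on Cyp2b or Nr1i3 had 1 of 27 called higher and 2 lower by edgeR. It called 1.37% of all genes higher and 1.44% lower. Nfe2l2, the oxidative stress regulator NRF2, rose by 0.45 ± 0.10 on the log2 scale (SE, edgeR adjusted p = 0.0256), a call lost without LFLS 2, HFHS 1 or HFHS 2 (adjusted p 0.0502 to 0.0640). Onecut1, the hepatocyte factor HNF6, went from 60.3 ± 43.1 to 14.0 ± 11.1 CPM, or -2.10 ± 0.52 (edgeR adjusted p = 0.0439). Foxa1, a pioneer factor of liver enhancers, had -0.62 ± 0.15 (edgeR adjusted p = 0.0439). The Onecut1 call was lost without any of 11 libraries, all but LFLS 1, LFLS 2 and HFHS 3 (adjusted p 0.0542 to 0.104), and the Foxa1 call without any of 12, all but LFLS 1 and 5 (adjusted p 0.0518 to 0.0991). Nr1i2, the sister receptor PXR, had -0.14 ± 0.22 (edgeR adjusted p = 0.771), 0.17 with limma voom.

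**Figure D5:**
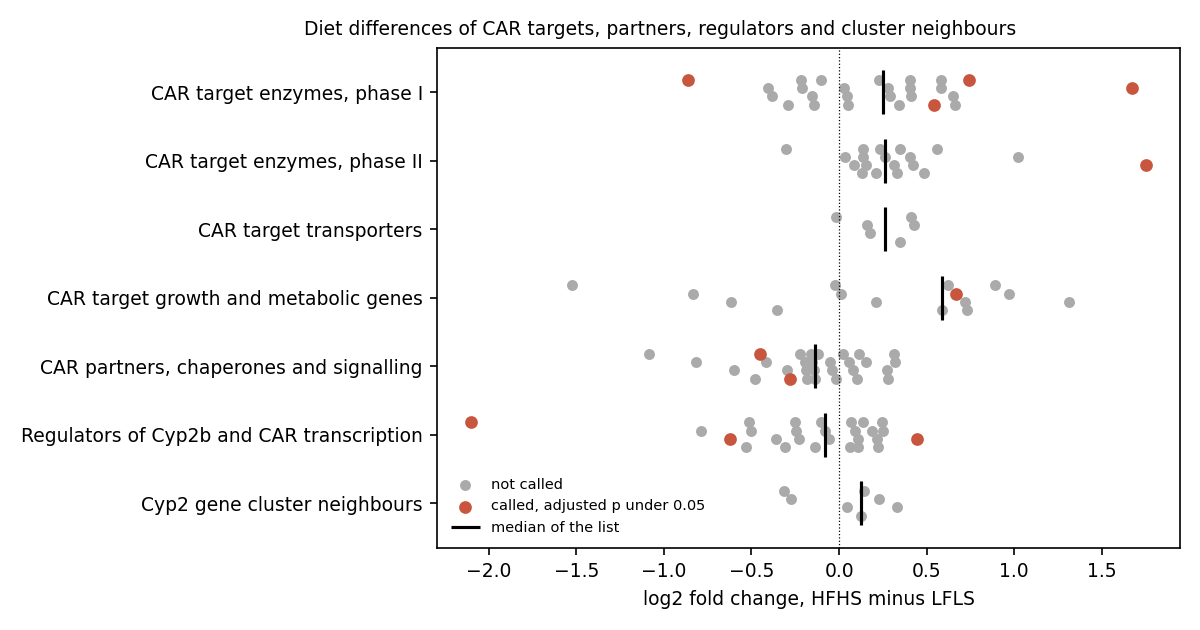
Log2 fold change between HFHS and LFLS (horizontal axis) of each tested gene in 7 lists of CAR targets, partners, regulators and cluster neighbours (vertical axis). Red points passed an adjusted p of 0.05 and bars are list medians: the CAR target lists had medians of 0.25 to 0.59, the partners -0.14 and the regulators -0.08.

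Other genes of the Cyp2 cluster were not called. Of 10 listed neighbours 7 could be tested, with 0 calls by edgeR, 0 by DESeq2, 4 by limma voom and 2 at an unadjusted p under 0.05. Limma voom called 3 higher and 1 lower, where it called 9.96% and 9.05% of all genes. EdgeR called 2.81% of all genes either way, and DESeq2 3.15% higher and 4.15% lower. The 2 with the smallest p were Cyp2a22, at 0.33 ± 0.11 (log2, SE, edgeR adjusted p = 0.118), and Cyp2f2, an enzyme of naphthalene metabolism, at -0.31 ± 0.13 (edgeR adjusted p = 0.210). The list's median was 0.13.

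Since Cyp2b9 and Cyp2b13 are genes that female liver expresses more, other genes with sex-biased expression were listed as well. Of 18 female-predominant genes 4 rose, 0 fell and the median log2 fold change was 0.57, where 1.37% of all genes were called higher and 1.44% lower by edgeR. Those 4, named after their values were seen, were Ntrk2 (2.20 ± 0.50), Abcd2 (1.58 ± 0.29), Acot4 (1.11 ± 0.28) and Prlr (0.83 ± 0.15). Of 22 male-predominant genes 3 fell, 0 rose and the median was -1.06. Those 3, also named afterwards, were Cspg5 (-1.74 ± 0.39, log2 with SE), Gstp1 (-1.14 ± 0.22) and Selenbp2, which fell by 1.00 ± 0.24. The counts without single libraries were added for these lists after the data were seen. Without HFHS 1, 2 female-predominant genes rose and 4 male-predominant genes fell. Without HFHS 2 or HFHS 5 it was 2 and 1. Without LFLS 1 it was 4 and 9, and without LFLS 6 it was 6 and 3. With the title number as a block, 5 and 9 were called. DESeq2 called 6 and 15, where it called 3.15% of all genes higher and 4.15% lower. Limma voom called 9 and 13, where it called 9.96% higher and 9.05% lower.

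Genes whose pattern over the 14 libraries was most like that of each of the 4 were taken by Pearson's r of log2 CPM among the 14794 genes that averaged 1 CPM or more, as a description. All share the diets, title numbers and libraries. For Cyp2b9 these were Als2cr4 (0.93), Nebl (0.93) and 4930519F09Rik (0.91). For Cyp2b10 they included Rtn4 (0.94) and Prps2 (0.93), and for Cyp2b13 Gm8946 (0.96), Tmem64 (0.95) and Ecm2 (0.94). For Nr1i3 they were its overlapping gene Tomm40l (1.00), Aptx (0.91) and Apol7a (0.91).

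With the diet means removed, the nearest genes to Cyp2b9 were Matn2 (0.91), Slc25a4 (0.91) and Pfkp (0.89). Those nearest to Cyp2b10 were Txndc16 (0.90), Slc44a1 (0.90) and Zbtb16 (0.89). Those nearest to Cyp2b13 were Sdpr (0.95), Rtn4 (0.94) and Vcam1 (0.93), and those nearest to Nr1i3 were Tomm40l (0.99), Lmbr1l (0.92) and Rchy1 (0.92). Tomm40l was among the nearest to Nr1i3 by both measures, and Rtn4 was near Cyp2b10 by the first and Cyp2b13 by the second.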

How the data were processed

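Liver RNA was extracted with Tri Reagent, DNase-treated, selected for poly(A) and sequenced from TruSeq libraries as single reads of 50 bases, per the labels' protocols. The submitters' processing notes name the tools CASAVA 1.8, TopHat, Bowtie and DESeq and the build mm9, and neither the counting tool nor the annotation is stated. The deposited table holds whole-number counts of 37681 genes in 14 libraries (18219257 to 52826695 each); no count is below 1, and 11120 genes stand at 1 throughout. Per the file headers, the authors' results table gives a DESeq fold change as a ratio of group means (B to A), its log2, and p-values, which were not used.

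Counts were filtered by edgeR 4.0.16 (filterByExpr by diet), scaled by TMM and tested by glmQLFTest (limma 3.58.1, DESeq2 1.42.0, R 4.3.3), with Benjamini-Hochberg adjustment over 17223 genes and a threshold of 0.05. The scripts were tested on simulated data. Log2 CPM used a prior count of 2. P-values measure the spread between mice. The genes and lists were chosen with earlier results of these data known. Named were the 4 genes, called genes of the target, partner, regulator and neighbour lists (at most 6 each, or the 2 with the smallest p where none was called), Rxra, Nr1i2, Por and Cyp2c29, and the 3 most alike genes by each of 2 measures, of which 1 is not reported here. Libraries of the same title number and letter did not deviate together consistently: 4 of 7 such pairs correlated over 0.1 (-0.07 to 0.41). Promoters came from RefSeq (GRCm38.p6, 4 of 4 genes matched) and were aligned with Biopython 1.88; words and overlaps came from GENCODE M21, not from the annotation behind the counts. Alternatives were DESeq2, limma voom, other scalings and filters, 1 subtracted from every count, blocks, each title number alone and each library left out.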

Additional observations from a re-analysis of the deposited data

Results flagged for a closer look

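In each diet, a library whose gap to its nearest neighbour took up more of the group's range than Dixon's 95% limit for 7 values was noted, over 46 groups of 23 named genes. Chance alone gives about 1 such group in 20 where values are normally distributed, and 3 of 46 were found. The values used were CPM without a log, some of them skewed, so that rate may not hold here.

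Cyp2b9 in HFHS 1 was 272 CPM, with the next library at 97.8. On the log2 CPM scale HFHS 1 stood less apart, at 8.09, with HFHS 6 at 6.61 and the lowest, HFHS 7, at 0.47. Leaving HFHS 1 out gave a log2 fold change of 7.57 in place of 8.56. HFHS 1 also had the lowest summed hepatocyte markers and the highest summed leukocyte and endothelial, stellate and bile duct markers. Their part in its Cyp2b9 level was not tested.

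Cyp1a2 in LFLS 1 was 418 CPM, with the next LFLS library at 304. Onecut1 in HFHS 3 was 38.1 CPM, with the next HFHS library at 15.7. Crebbp differed between the title numbers in its diet effect, with an interaction term of 0.53 ± 0.11 on the log2 scale (edgeR quasi-likelihood adjusted p = 0.0418).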

How the results depend on the processing

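The log2 fold changes of the 4 genes between the diets kept their sign under all 25 alternatives run, at 7.08 to 8.96 for Cyp2b9, 2.55 to 3.97 for Cyp2b10, 0.60 to 1.35 for Cyp2b13 and 0.39 to 0.95 for Nr1i3. Counts of called genes moved much more, and the cause was not tested. Genes called higher and lower on HFHS, 236 and 248 by edgeR, were 543 and 715 by DESeq2, 1716 and 1558 by limma voom, 379 and 152 by library totals alone (71.4% higher in place of 48.8%), 87 and 86 with no filter on low counts, 926 and 558 in title number 1 alone and 134 and 135 in title number 2 alone. Leaving out a library gave 79 to 414 higher and 54 to 439 lower. With the title number as a replicate block they were 755 and 785. The title pairs share only a number and a letter, and 3 HFHS libraries correlated best with their own pair. Calls in the CAR target lists, 6 by edgeR, were 11 by DESeq2, 24 by limma voom, 3 with no filter, 13 with the title number as a replicate block, 11 with pairs of titles as a replicate block, 13 in title number 1 alone and 3 to 10 without a library.

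Genes called by title number, 4953, were 2778 to 5514 without a library. For the title number contrast, Cyp2b9 turned to 0.11 by DESeq2 and 0.62 by limma voom, and lay between -0.60 and 2.13 without a library. Cyp2b13 was called at 0.57 by limma voom and lay between 0.36 and 0.74 without a library. Cyp2b10 was no longer called at 1.18 by library totals and 1.29 with no filter (1.03 to 1.82 without a library), nor Nr1i3 at 0.42 and 0.45 (0.44 to 0.63 without a library). Genes with an interaction, 152, were 1467 by DESeq2, 3586 by limma voom, 46 by library totals, 2 with no filter and 0 to 1267 without a library. The 0 was without HFHS 5, where edgeR gave 2746 at an unadjusted p under 0.05, DESeq2 394 calls and limma voom 2171. The interaction term of Cyp2b9 turned to 0.85 by limma voom (-1.50 to 1.94 without a library), and that of Nr1i3 lay between -0.31 and 0.10 without a library. By limma voom the diet difference of Nr1i2 turned to 0.17 and that of Por to 0.16. Without a library, r lay between -0.062 and 0.47 for Cyp2b9 and Cyp2b10 on LFLS, -0.025 and 0.39 for Cyp2b9 and Cyp2b13 on LFLS, -0.50 and 0.47 for Cyp2b10 and Nr1i3 on HFHS, and -0.60 and 0.44 for Cyp2b13 and Nr1i3 on HFHS. Of the single genes' other values, 453 kept direction and call, 94 lost a call and 6 gained one. With no filter the calls of Aldh1a7, Gsta1, Dio1, Crebbp, Ep300, Nfe2l2, Onecut1 and Foxa1 were lost, and in title number 2 alone those of all these but Onecut1, and of Cyp1a2. In title number 1 alone Gsta1, Ep300, Nfe2l2, Onecut1 and Foxa1 were lost. Depth limits Cyp2b9 on LFLS, at 1 to 13 counts, and Cyp2b10 on LFLS, at 4 to 37 counts.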
